A study of Homo sapiens with 6 samples.

Results

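The tubulin isotype genes were 10 of the 27776 genes in the count table, 6 for beta tubulins (TUBB, TUBB2A, TUBB2B, TUBB3, TUBB4B and TUBB6) and 4 for alpha tubulins (TUBA1A, TUBA1B, TUBA1C and TUBA4A). They were chosen by name, as the building blocks of the microtubule that taxane drugs bind, and all 10 passed the filter on low counts. Polyadenylated RNA was sequenced from MDA-MB-231, a cell line from a human breast carcinoma without oestrogen receptor, progesterone receptor or HER2 amplification. The 6 libraries fell into 3 titled as khellin, a plant-derived furanochromone, and 3 titled as control. The labels used here give no dose, exposure time or vehicle. The design text of the series sets the khellin group against a docetaxel-resistant group, while the sample titles say control, so the labels do not settle whether the control cells, or both groups, were docetaxel-resistant. Replicates are titled as biological, without a statement on cultures, and the p-values therefore measure the spread between these 6 libraries, part of which may be technical.

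Microtubules are hollow polymers of paired alpha and beta tubulin, and they build the spindle that separates chromosomes in mitosis. Docetaxel and paclitaxel bind beta tubulin within the polymer and stabilise it, and the isotype make-up of beta tubulin, above all the neuronal isotype TUBB3, has been studied as a correlate of taxane resistance in breast cancer. The isotypes differ most in their carboxy-terminal tails, which project from the microtubule surface, carry many of its chemical modifications and are bound by associated proteins.

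The coding ends of the beta genes are printed because the tail is where the isotypes differ most and because a read can be assigned to 1 isotype only through bases that differ. Each is the last 75 coding bases with the stop codon, 5′ to 3′ on the coding strand, from the GENCODE release 29 transcripts on GRCh38, and capitals mark bases that differ from TUBB, or have no counterpart in it, in an alignment of the coding sequences.
TUBB: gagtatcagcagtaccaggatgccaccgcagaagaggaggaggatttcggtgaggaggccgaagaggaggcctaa
TUBB6: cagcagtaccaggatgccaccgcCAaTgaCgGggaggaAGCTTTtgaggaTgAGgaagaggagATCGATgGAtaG
TUBB4B: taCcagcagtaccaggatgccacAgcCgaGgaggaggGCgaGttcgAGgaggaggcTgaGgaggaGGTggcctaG
TUBB3: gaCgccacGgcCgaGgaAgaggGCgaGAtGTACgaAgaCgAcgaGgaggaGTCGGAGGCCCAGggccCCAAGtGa
TUBB2A: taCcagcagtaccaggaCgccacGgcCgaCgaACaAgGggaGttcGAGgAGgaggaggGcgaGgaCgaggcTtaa
TUBB2B: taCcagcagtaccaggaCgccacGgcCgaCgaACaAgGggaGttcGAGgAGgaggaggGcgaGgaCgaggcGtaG
In this stretch TUBB3 held the most capitals, 36, and TUBB6 held 23. Over the whole coding sequence TUBB6 differed from TUBB at 256 of 1341 bases, against 247 in TUBB3 and fewer in the other 3. Its coding sequence was 80.9% identical to that of TUBB and 83.2% identical to that of TUBB4B. TUBB2A and TUBB2B, in contrast, were 98.1% identical to each other.

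Exact sharing of sequence, compared among tubulin genes only, showed which counts rest on bases that the other tubulin genes lack. Of all 100-base stretches of the reference transcript, 0% in TUBB6, 2.86% in TUBB4B, 5.10% in TUBB and 5.15% in TUBB3 recurred in a transcript of another tubulin gene or pseudogene. The same share was 56.4% in TUBB2A and 46.2% in TUBB2B, so the division of reads between these neighbours on chromosome 6 is uncertain. The handling of reads that fit several genes is not stated. Exons of other genes on the opposite strand overlap 20.15% of the TUBB transcript and 7.6% of the TUBB4B transcript. These overlapping genes had at most 15 reads per library.

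The alpha genes lay closer together. TUBA1A and TUBA1B were 97.2% identical over the coding sequence, and TUBA1B and TUBA1C were 96.8% identical. Of all 100-base stretches, 37.2% in TUBA1B, 18.3% in TUBA1A and 11.5% in TUBA1C recurred in another tubulin transcript, against 1.84% in TUBA4A. The division of reads among the TUBA1 genes is therefore uncertain, while their sum does not depend on that division. Reads left uncounted because they fit several genes would be missing from the sum as well, and this was not tested. TUBA4A is encoded without the terminal tyrosine of most alpha tubulins, so its product does not need enzymatic removal of that residue.

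TUBB6 was lower in the khellin libraries, and it was the single member of the 10 that passed the test, against 19.4% of all 15865 genes tested. TUBB6 encodes the class V beta isotype, whose overproduction disrupts microtubules in cultured hamster cells; the gene lies on chromosome 18 of GRCh38 (chr18:12307669-12344320, plus strand). Its level was 383.8, 409.1 and 403.3 CPM (read counts scaled to the library total, with trimmed mean of M values factors) in the 3 khellin libraries, against 547.1, 590.3 and 642.3 CPM in the 3 control libraries. Every khellin library was thus below every control library, and the khellin libraries lay closer together. The log2 fold change of khellin over control was −0.57 (SE 0.0594, 95% interval −0.71 to −0.44, n = 3 libraries per group), a level 0.672 times that of the control libraries, with an adjusted p of 0.000243 by the quasi-likelihood test of edgeR (Benjamini-Hochberg over all genes tested). The raw counts behind it were 11132, 12168 and 12390 reads in khellin libraries and 16196, 17372 and 19414 reads in control libraries.

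Calls were common over the whole table, where 10.6% of tested genes passed as higher and 8.82% as lower in khellin libraries, and the count of 1 lower and 0 higher among 10 members lies near this background. The size of the fall in TUBB6 exceeded the absolute log2 fold change of 92.9% of all tested genes. AFG3L2, which encodes a subunit of a mitochondrial protease, overlaps the span of TUBB6 on the opposite strand without sharing an exon with its main transcript. It had 3464 to 3800 reads in khellin libraries against 4048 to 4294 reads in control libraries, with a log2 fold change of −0.20 (SE 0.0442, edgeR adjusted p = 0.0116). The strand setting of the counting is not given, and the part of AFG3L2 reads in the TUBB6 count was not tested. In bulk RNA such as this, fewer cells with a transcript and less of it per cell cannot be told apart.

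**Figure D1:**
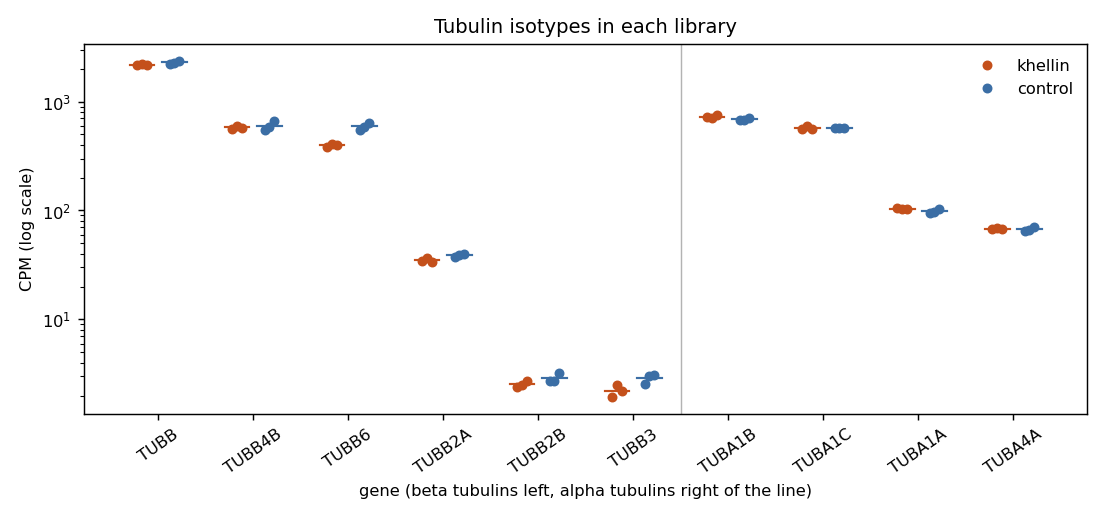
Level of each tubulin isotype gene in CPM by library, khellin libraries left of control libraries, points for libraries and bars for the group mean. TUBB6 libraries sit between 383.8 and 409.1 CPM with khellin, all below the control libraries at 547.1 to 642.3 CPM, while most other members overlap or nearly meet.

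TUBB, the class I beta isotype found in most tissues, had the highest level of the set (chr6:30717435-30725538, plus strand). It had 2185, 2237 and 2147 CPM in khellin libraries, against 2219, 2273 and 2369 CPM in control libraries. The groups overlapped, with khellin library 2 above control library 1. The log2 fold change was −0.06 (SE 0.0405, 95% interval −0.15 to 0.03, edgeR adjusted p = 0.315).

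TUBB4B, the class IVb isotype that is also widely expressed (chr9:137241287-137243707, plus strand), had 564.4, 603.0 and 574.1 CPM in khellin libraries, against 545.7, 582.1 and 665.8 CPM in control libraries. The khellin values lay inside the range of the control values. Its log2 fold change was −0.04 (SE 0.0691, 95% interval −0.20 to 0.11, edgeR adjusted p = 0.715), and the sign turned to 0.04 without control library 3. For TUBB and TUBB4B the intervals leave out a fall as large as the one estimated for TUBB6; the differences between the members' fold changes were not tested.

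TUBB3, the class III isotype most discussed with taxanes, was low in both groups (chr16:89921392-89938761, plus strand). It had 56, 74 and 68 reads in khellin libraries against 76, 88 and 93 reads in control libraries, which is 1.93, 2.49 and 2.21 CPM in khellin libraries against 2.57, 2.99 and 3.08 CPM in control libraries. All khellin values were below all control values by a small margin. The log2 fold change was −0.38 (SE 0.139, 95% interval −0.69 to −0.07), and it did not pass the adjustment over all genes (edgeR adjusted p = 0.0883, unadjusted p = 0.0225). A readthrough gene on the same strand covers 89.5% of the TUBB3 transcript in GENCODE and was listed with 1 to 2 reads per library, so the level of TUBB3 depends on how shared reads were handled, which is not given.

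The class II genes TUBB2A and TUBB2B, which are near-identical copies on the minus strand of chromosome 6 (chr6:3153497-3157544 and chr6:3223324-3231730), were low as well. TUBB2A had 34.3, 36.3 and 34.0 CPM in khellin libraries against 37.8, 38.8 and 39.7 CPM in control libraries, without overlap. Its log2 fold change was −0.15 (SE 0.0579, edgeR adjusted p = 0.0986). TUBB2B had 2.41, 2.49 and 2.73 CPM in khellin libraries against 2.74, 2.72 and 3.21 CPM in control libraries, where the highest khellin value lay between the lower control values. Its log2 fold change was −0.18 (SE 0.125, edgeR adjusted p = 0.347). PSMG4 overlaps the span of TUBB2B on the opposite strand without sharing an exon with its main transcript. It had 532 to 605 reads in khellin libraries against 680 to 855 in control libraries (log2 fold change −0.41, edgeR adjusted p = 0.0101). TUBB2B itself had 70 to 97 reads per library, and the part of PSMG4 reads in its count was not tested. With TUBB2A and TUBB2B summed, the log2 fold change was −0.15 (SE 0.0571, 95% interval −0.28 to −0.03, edgeR adjusted p = 0.0903). The sum removes the doubt over their division, though not over reads left uncounted.

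All 6 beta genes had a log2 fold change below 0, against 49.6% of all tested genes, though TUBB4B came to 0.0021 with library size only, and only TUBB6 passed. The median over the 10 members was −0.05, against 0.00 over all tested genes. At an unadjusted p under 0.05 there were 3 lower members (TUBB6, TUBB3 and TUBB2A) and 0 higher, and DESeq2 called 1 lower and 0 higher. The groups did not overlap for 4 of the 10 members (TUBB6, TUBB3, TUBB2A and TUBA1A), against 38.2% of all genes tested.

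**Figure D2:**
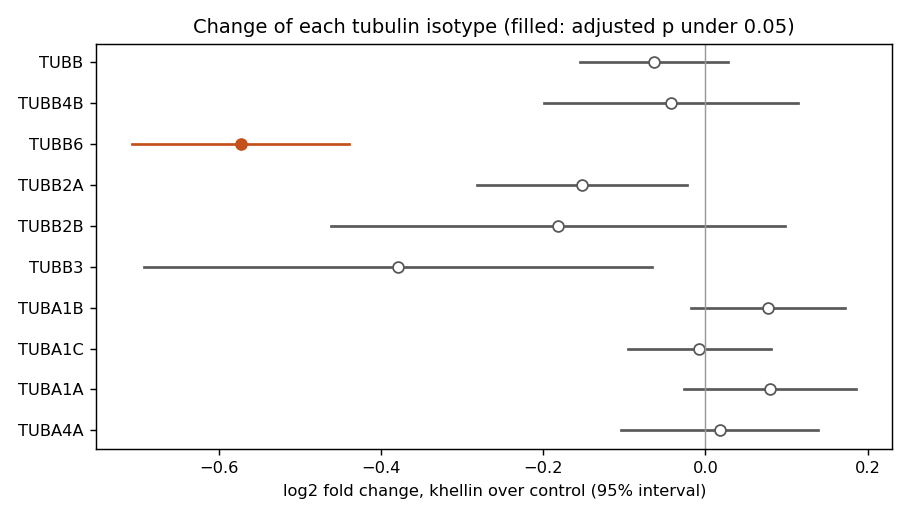
Log2 fold change of khellin over control for each member with its 95% interval from the edgeR fit (3 libraries per group). The interval of TUBB6 runs from −0.71 to −0.44; those of TUBB3 and TUBB2A end just below 0 without passing the adjustment over all genes, and the other 7 intervals cross 0.

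None of the 4 alpha isotypes passed the test (0 at an unadjusted p under 0.05 by edgeR, 0 by DESeq2). TUBA1B, the main alpha isotype here (chr12:49127782-49131397, minus strand), had 719.7, 700.7 and 753.8 CPM in khellin libraries against 677.6, 678.9 and 704.6 CPM in control libraries. One khellin library lay within the control range. Its log2 fold change was 0.08 (SE 0.0424, 95% interval −0.02 to 0.17, edgeR adjusted p = 0.239).

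TUBA1C, a close copy on the same stretch of chromosome 12 (chr12:49188736-49274600, plus strand), had 561.5, 590.9 and 560.6 CPM in khellin libraries, against 576.0, 574.1 and 572.0 CPM in control libraries. The control values lay inside the khellin range, and the log2 fold change was −0.01 (SE 0.0392, 95% interval −0.10 to 0.08, edgeR adjusted p = 0.915). Its sign depended on the scaling and on single khellin libraries, at 0.04 with library size only and 0.0045 without khellin library 1.

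TUBA1A, the alpha isotype that predominates in developing neurons (chr12:49184686-49189080, minus strand), had 104.4, 103.3 and 103.9 CPM in khellin libraries against 95.1, 96.7 and 103.1 CPM in control libraries. The groups were set apart by a narrow gap to control library 3, with a log2 fold change of 0.08 (SE 0.0474, edgeR adjusted p = 0.279). TUBA4A (chr2:219249710-219277902, minus strand) had 67.2, 69.5 and 67.5 CPM in khellin libraries against 64.7, 65.8 and 71.2 CPM in control libraries, all khellin values inside the control range. Its log2 fold change was 0.02 (SE 0.0541, edgeR adjusted p = 0.855), and −0.01 without control library 1. The sum of the TUBA1 genes, which does not depend on how reads were divided among them, gave 0.04 (SE 0.0362, 95% interval −0.04 to 0.12, edgeR adjusted p = 0.462).

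The make-up of the beta pool differed between the groups mainly in TUBB6 and TUBB. As a share of all counts on annotated beta tubulin genes, TUBB6 took 12.1%, 12.4% and 12.7% in the khellin libraries, against 16.3%, 16.9% and 17.2% in the control libraries. The means were 12.4 ± 0.324% in khellin libraries and 16.8 ± 0.478% in control libraries (SD, n = 3 each), a difference of −4.39 percentage points. The exact permutation test gave p = 0.1, the smallest p that 3 libraries against 3 allow, and 0.333 after Benjamini-Hochberg adjustment over the 10 member shares. The 95% Wilson intervals of single libraries were at most 0.230 points to either side, so the gap was many times the counting error; such intervals cover counting error only, since PCR copies are not independent molecules.

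TUBB filled 68.2 ± 0.559% of the beta counts in khellin libraries and 65.0 ± 1.26% in control libraries (SD, n = 3 each), and the groups did not overlap. TUBB4B filled 18.1 ± 0.270% in khellin libraries and 16.9 ± 0.841% in control libraries, with overlap. The differences were 3.27 points for TUBB (exact permutation p = 0.1) and 1.15 points for TUBB4B (exact permutation p = 0.2). Shares of a whole move together, and among beta counts other than TUBB6, an alternative added after the shares had been seen, the gaps of TUBB and TUBB4B shrank while those of TUBB2A and TUBB3 grew. TUBB then took 77.9 ± 0.386% in khellin libraries and 78.1 ± 1.10% in control libraries, a difference of −0.178 points with exact permutation p = 0.9. TUBB4B then took 20.7 ± 0.364% in khellin libraries and 20.4 ± 1.12% in control libraries, with exact permutation p = 0.6. TUBB2A then took 1.24 ± 0.0173% in khellin libraries and 1.32 ± 0.0311% in control libraries, and TUBB3 took 0.0786 ± 0.00866% in khellin libraries and 0.0981 ± 0.00603% in control libraries, both without overlap (SD, n = 3 each, exact permutation p = 0.1 for each).

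The rarer beta isotypes added little to the whole beta pool. Of all beta counts TUBB2A took 1.09 ± 0.0157% in khellin libraries and 1.10 ± 0.0312% in control libraries, TUBB2B 0.0794 ± 0.00611% in khellin libraries and 0.0819 ± 0.00416% in control libraries, and TUBB3 0.0688 ± 0.00744% in khellin libraries and 0.0816 ± 0.00466% in control libraries (SD, n = 3 each). The exact permutation p was 0.5 for TUBB2A, 0.6 for TUBB2B and 0.1 for TUBB3, whose groups did not overlap. The beta genes outside the set, such as the platelet isotype TUBB1, summed to 9 to 17 reads in khellin libraries and 13 to 15 reads in control libraries, at most 0.0175% of the beta counts.

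Set against single partners, TUBB6 had 0.182 ± 0.00613 reads per TUBB read in khellin libraries and 0.259 ± 0.0123 in control libraries. Per TUBB4B read it had 0.687 ± 0.0135 reads in khellin libraries and 0.994 ± 0.0259 in control libraries (SD, n = 3 each, exact permutation p = 0.1 for both ratios). The control libraries thus held about as many TUBB6 as TUBB4B reads, and the khellin libraries held fewer.

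**Figure D3:**
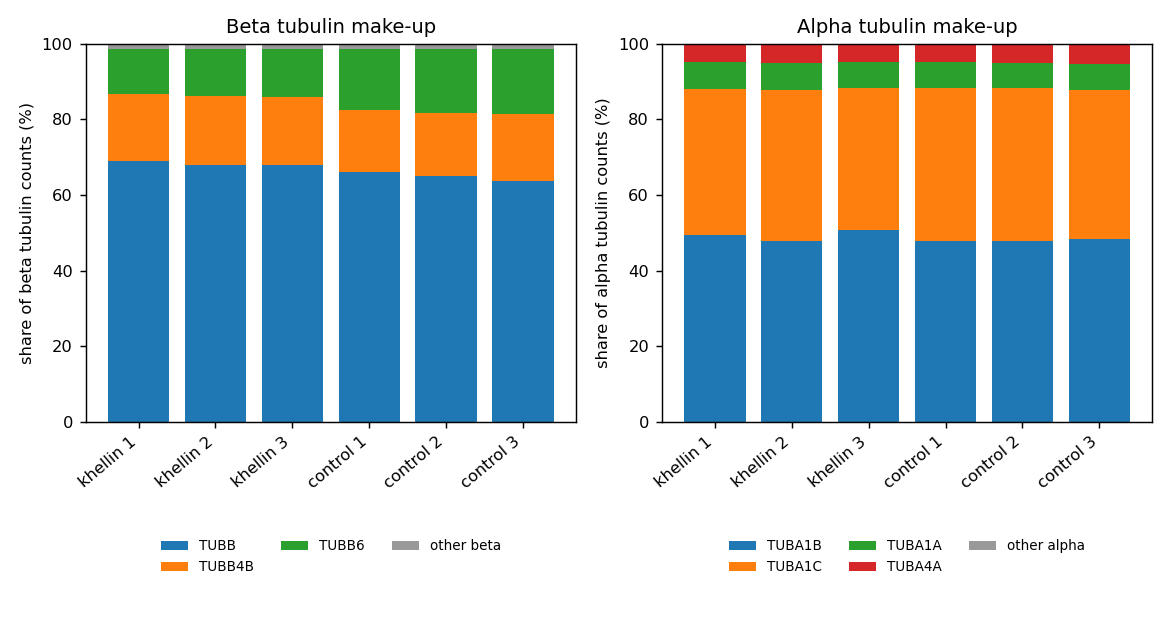
Share of each isotype in all beta (left) and all alpha (right) tubulin counts of each library, in percent, khellin libraries left of control libraries. TUBB6 fills 12.1 to 12.7% of beta counts with khellin and 16.3 to 17.2% in control libraries, while no alpha isotype separates the groups.

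The alpha pool was divided in nearly the same way in both groups, and the groups overlapped for all 4 members. TUBA1B took 49.2 ± 1.46% of alpha counts in khellin libraries and 48.0 ± 0.354% in control libraries, and TUBA1C took 38.8 ± 1.31% in khellin libraries and 40.1 ± 0.718% in control libraries. TUBA1A took 7.06 ± 0.0979% in khellin libraries and 6.87 ± 0.195% in control libraries, and TUBA4A 4.63 ± 0.10% in khellin libraries and 4.70 ± 0.173% in control libraries (SD, n = 3 each). The exact permutation p was 0.4 for TUBA1B, 0.2 for TUBA1C, 0.3 for TUBA1A and 0.6 for TUBA4A. Alpha genes outside the set, among them TUBAL3 and TUBA3D, summed to 91 to 133 reads in khellin libraries and 109 to 141 reads in control libraries, at most 0.337% of the alpha counts.

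Longer transcripts give more reads per molecule, so levels were also set out per kilobase of the reference transcript. The full length was used, without allowance for sequence shared with or overlapped by other genes. On that scale the beta genes ran from TUBB (820.0 ± 16.8 CPM per kb in khellin libraries, 857 ± 28.5 in control libraries) through TUBB4B (355 ± 12.2 in khellin libraries, 365 ± 37.6 in control libraries) to TUBB6 (193 ± 6.42 in khellin libraries, 287 ± 23.1 in control libraries). TUBB2A followed at 21.9 ± 0.797 CPM per kb in khellin libraries and 24.3 ± 0.608 in control libraries, TUBB2B at 1.26 ± 0.0832 in khellin libraries and 1.43 ± 0.138 in control libraries, and TUBB3 at 1.25 ± 0.157 in khellin libraries and 1.63 ± 0.154 in control libraries. Only TUBB2B and TUBB3 overlapped as neighbours in this order, in both groups. TUBB4B stood 1.84 times above TUBB6 in khellin libraries and 1.27 times in control libraries.

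The alpha genes ran in the order TUBA1B (445 ± 16.5 CPM per kb in khellin libraries, 422 ± 9.37 in control libraries), TUBA1C (190.3 ± 5.74 in khellin libraries, 191 ± 0.667 in control libraries), TUBA1A (54.2 ± 0.285 in khellin libraries, 51.3 ± 2.21 in control libraries) and TUBA4A (31.5 ± 0.573 in khellin libraries, 31.1 ± 1.61 in control libraries). No neighbours overlapped in either group. As a share of the beta level per kilobase, TUBB6 took 13.9 ± 0.338% in khellin libraries and 18.7 ± 0.436% in control libraries, TUBB 58.9 ± 0.608% in khellin libraries and 55.8 ± 1.39% in control libraries, and TUBB4B 25.5 ± 0.328% in khellin libraries and 23.7 ± 1.05% in control libraries (SD, n = 3 each).

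The balance of the families also differed between these libraries, with no adjustment made over the sums and ratios compared. Summed beta tubulin was 3172, 3291 and 3164 CPM in khellin libraries against 3356, 3491 and 3724 CPM in control libraries, while summed alpha tubulin was 1456, 1469 and 1489 CPM in khellin libraries against 1417, 1420.3 and 1455 CPM in control libraries. Both sums were without overlap, the beta sum lower and the alpha sum higher with khellin (exact permutation p = 0.1 for each). For the alpha sum the margin was narrow, at 1455.9 CPM in khellin library 1 against 1455.1 CPM in control library 3. The exact permutation p became 0.2 for the beta sum with library size only and for the alpha sum with RLE factors. It was also 0.2 for the beta sum without any 1 khellin library, and for the alpha sum without any 1 library except control library 3. Leaving out a library cannot make separate groups overlap, so both sums stayed apart in these smaller sets. With 2 libraries against 3, another split of the same values can give a larger difference in means. The beta to alpha ratio, which needs no scaling between libraries, was 2.18, 2.24 and 2.12 in khellin libraries against 2.37, 2.46 and 2.56 in control libraries, a difference in means of −0.281 (exact permutation p = 0.1, the smallest possible). Without TUBB6 the ratio was 1.91, 1.96 and 1.85 in khellin libraries against 1.98, 2.04 and 2.12 in control libraries, a difference of −0.137 that still left the groups apart by a narrow margin. The beta sum without TUBB6 overlapped between the groups, at 2810 ± 63.3 CPM in khellin libraries and 2930 ± 139 CPM in control libraries (SD, n = 3 each, exact permutation p = 0.2). That difference, −120.1 CPM, was −32.0 CPM with library size only (exact permutation p = 0.7), −44.4 CPM without control library 3 and −181 CPM without control library 1. The 10 members together took 0.474 ± 0.00776% of all counts in khellin libraries and 0.487 ± 0.0181% in control libraries (exact permutation p = 0.3).

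Cells adjust tubulin mRNA to the amount of free tubulin: TTC5 recognises the start of the nascent tubulin chain on the ribosome and, with SCAPER and the CCR4-NOT subunit CNOT11, triggers decay of the message. None of these 3 genes passed the test. TTC5 had a log2 fold change of −0.13 (SE 0.0622, edgeR adjusted p = 0.185), SCAPER of 0.08 (edgeR adjusted p = 0.557) and CNOT11 of −0.08 (edgeR adjusted p = 0.247). The chain start is encoded by the first coding bases, which are printed for a beta and an alpha pair.
TUBB: atgagggaaatc
TUBB6: atgagggagatc
TUBA1B: atgcgtgagtgc
TUBA4A: atgcgtgaatgc
TUBB4B shared the TUBB form and TUBB3 the TUBB6 form of these 12 bases. Within each printed pair the bases differ only as gaa against gag. Both codons encode glutamate, so the encoded chain start is the same within each pair.

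Newly made tubulin is folded by the chaperonin CCT, fed by prefoldin, before cofactors join alpha to beta. Of the 14 chaperonin and prefoldin genes tested, 4 fell (CCT2, CCT8, CCT6A and CCT3), 0 rose and 10 did not pass, where 8.82% of all tested genes fell and 10.6% rose. All 14 had a log2 fold change below 0, against 49.6% of all tested genes, with a median of −0.17 against 0.00 over all tested genes, and all 14 stayed below 0 with the other scalings tried. CCT2 averaged 294 ± 9.48 CPM in khellin libraries and 339 ± 0.868 CPM in control libraries, a log2 fold change of −0.21 (SE 0.0408, edgeR adjusted p = 0.00751). CCT8 had a log2 fold change of −0.21 (edgeR adjusted p = 0.0134), which missed the threshold without khellin library 2 or 3 (adjusted p = 0.0529 and 0.0524). CCT6A had one of −0.16 (edgeR adjusted p = 0.0151), lost in 5 of 12 alternatives, among them those without control library 2 or any 1 khellin library (largest adjusted p 0.0935). CCT3, named after its value was seen, had one of −0.15 (edgeR adjusted p = 0.0412), lost in 6 of 12 alternatives, among them those without control library 2 or any 1 khellin library (largest adjusted p 0.149).

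Among the 8 folding cofactors TBCD, which takes up beta tubulin after the chaperonin, fell and 7 did not pass, near the 8.82% of all tested genes that fell. TBCD averaged 103 ± 2.89 CPM in khellin libraries and 118 ± 3.87 CPM in control libraries, a log2 fold change of −0.20 (SE 0.0469, edgeR adjusted p = 0.0169). The call was lost in 4 of 12 alternatives, with library size only and without control library 2, khellin library 1 or khellin library 3 (largest adjusted p 0.0932).

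Proteins that take microtubules apart were among the genes that rose. Of 13 destabilising and severing genes tested, 4 rose, 1 fell and 8 did not pass, where 10.6% of all tested genes rose and 8.82% fell, with a median log2 fold change of 0.24 against 0.00 over all tested genes. KIF2C, the mitotic kinesin that depolymerises microtubules at centromeres, averaged 156 ± 1.25 CPM in khellin libraries and 106 ± 0.353 CPM in control libraries, a log2 fold change of 0.55 (SE 0.0401, edgeR adjusted p = 3.0e-05). KIF18B, a plus-end depolymerase, had a log2 fold change of 0.34 (edgeR adjusted p = 0.00358). STMN3, a stathmin that binds free tubulin, had 4.68 ± 0.301 CPM in khellin libraries and 3.0 ± 0.144 CPM in control libraries, a log2 fold change of 0.64 (edgeR adjusted p = 0.00289). KIF18A, a kinesin that shortens microtubules, was named after its value was seen and had a log2 fold change of 0.43 (edgeR adjusted p = 0.00848).

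In the list of proteins that bind the microtubule lattice, 3 rose, 1 fell and 15 of 19 did not pass, near the whole-table shares of 10.6% higher and 8.82% lower. TPX2, which drives microtubule assembly around chromosomes, averaged 478 ± 14.0 CPM in khellin libraries and 358 ± 8.15 CPM in control libraries, a log2 fold change of 0.42 (SE 0.0415, edgeR adjusted p = 0.000196). NUMA1, which gathers spindle poles, had one of 0.23 (edgeR adjusted p = 0.0066). MAP1A rose by 0.63 on the log2 scale (edgeR adjusted p = 0.0253), a call lost without control library 2, khellin library 1 or khellin library 3 (adjusted p 0.0961 to 0.0987). The gene that fell, named after its value was seen, was MAP7D3 at −0.17 (edgeR adjusted p = 0.0367), whose call was lost in 7 of 12 alternatives, among them those without control library 1 or 2 or any 1 khellin library (largest adjusted p 0.151).

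In the plus-end list 3 of 15 rose and 0 fell, where 10.6% of all tested genes rose and 8.82% fell. CKAP5, the microtubule polymerase also known as ch-TOG, averaged 369 ± 8.07 CPM in khellin libraries and 271 ± 13.1 CPM in control libraries, a log2 fold change of 0.44 (SE 0.0468, edgeR adjusted p = 0.000269). Its partner TACC3 had a log2 fold change of 0.29 (edgeR adjusted p = 0.00259). CLASP1, which rescues shrinking microtubules, had one of 0.20 (edgeR adjusted p = 0.0250), lost without control library 2 or any 1 khellin library (largest adjusted p 0.108).

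The calls were upward in the list of gamma, delta and epsilon tubulins with the ring complex, and in augmin. Of all tested genes 10.6% rose and 8.82% fell. In the gamma-tubulin list 2 of 13 rose and 0 fell, with a median log2 fold change of 0.14. TUBD1, the delta tubulin of centrioles, had a log2 fold change of 0.43 (SE 0.0668, edgeR adjusted p = 0.00212), whereas the ring complex member TUBGCP2 at 0.15 (edgeR adjusted p = 0.0367) lost its call in 9 of 12 alternatives, among them those without control library 1 or 2 or any 1 khellin library (largest adjusted p 0.133). In augmin, which branches new microtubules from old ones, 2 of 8 rose and 0 fell. HAUS4 had a log2 fold change of 0.48 (SE 0.0749, edgeR adjusted p = 0.00218), and HAUS5 at 0.20 (edgeR adjusted p = 0.0480) lost its call in 10 of 12 alternatives, among them those without any 1 library (largest adjusted p 0.151).

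Of the 19 enzymes that modify tubulin, 3 rose, 2 fell and 14 did not pass, near the whole-table shares of 10.6% higher and 8.82% lower. HDAC6, which deacetylates alpha tubulin, averaged 46.5 ± 0.908 CPM in khellin libraries and 33.8 ± 1.14 CPM in control libraries, a log2 fold change of 0.46 (SE 0.0561, edgeR adjusted p = 0.000574). TTLL12, a member of the tubulin tyrosine ligase-like family, averaged 72.4 ± 2.34 CPM in khellin libraries and 93.7 ± 2.91 CPM in control libraries, a log2 fold change of −0.37 (SE 0.0495, edgeR adjusted p = 0.000961). VASH2, which removes the terminal tyrosine of alpha tubulin, had 1.34 ± 0.0622 CPM in khellin libraries and 0.863 ± 0.0196 CPM in control libraries, a log2 fold change of 0.63 (edgeR adjusted p = 0.0230), lost in 6 of 12 alternatives, among them DESeq2 (adjusted p = 0.177) and those without control library 1 or 2 or any 1 khellin library. The other called enzymes, named after their values were seen, were AGBL5, a tubulin deglutamylase, at 0.28 (edgeR adjusted p = 0.0268) and TTL, the ligase that puts the tyrosine back, at −0.14 (edgeR adjusted p = 0.0413). AGBL5 lost its call without control library 2 or khellin library 2 or 3 (largest adjusted p 0.116), and TTL in 8 of 12 alternatives, among them those without control library 1 or 2 or any 1 khellin library (largest adjusted p 0.149).

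Over all 10 lists, 17 of 115 tested genes rose, 9 fell and 89 did not pass, near the whole-table shares of 10.6% higher and 8.82% lower, with a median log2 fold change of 0.04. Library size only gave 3 lower genes in place of 9, and leaving out 1 library gave 11 to 22 higher and 2 to 15 lower genes.

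**Figure D4:**
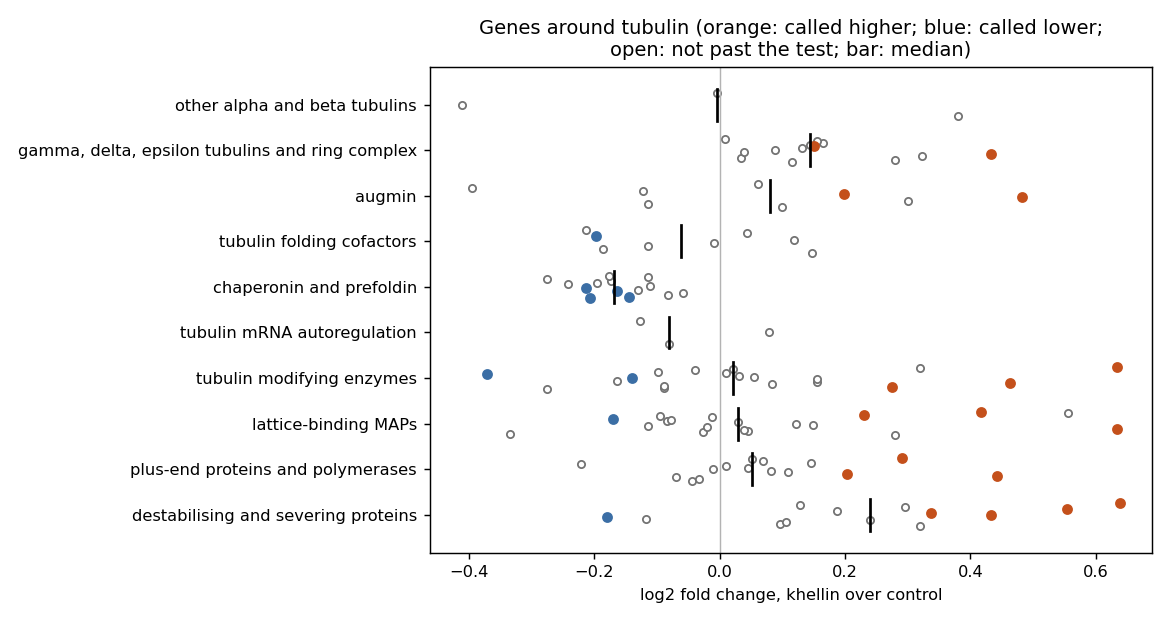
Log2 fold change of khellin over control for the tested genes in each list around tubulin, 1 point per gene, filled where the edgeR test was passed. The chaperonin and prefoldin points all lie below 0, from −0.28 to −0.06, and the destabilising list has its median at 0.24.

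The genes whose levels ran most like the main isotype of each family were named by correlation over the 6 libraries, as a description, since the points share the depth and scaling of each library and the groups. For TUBB they were SLC35C1 (Pearson r = 0.998 of log2 CPM), CTU2 (r = 0.996) and CNPPD1 (r = 0.995). For TUBA1B they were NUP37 (r = 0.981), UPF3B (r = 0.977) and ZFP64 (r = 0.972). They were the highest of 10988 candidate genes, and none of the 6 passed the test between the groups.

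The libraries were of similar depth and carried the markers of the line. They held 28631578 to 30291087 counts with khellin and 29662956 to 30956610 counts in control, and no pair of replicates agreed within sampling noise. The chi-squared per degree of freedom, which grows with the disagreement of a pair, was 1.91 to 5.40 among khellin libraries. Among control libraries it was 7.10 to 20.8, highest for control libraries 1 and 3. All 5 markers of mesenchymal-like breast cancer cells were present, and they summed to 3882 to 4056 CPM in khellin libraries and 3869 to 4112 CPM in control libraries. Within that list VIM lay at 2059 to 2217 CPM in khellin libraries and 1915 to 2006 CPM in control libraries, CD44 at 474 to 494 CPM in khellin libraries and 579 to 602 CPM in control libraries, and EGFR at 535 to 545 CPM in khellin libraries and 584 to 667 CPM in control libraries. The 5 luminal markers summed to 15.2 to 18.5 CPM in khellin libraries and 16.8 to 17.2 CPM in control libraries, mostly from GATA3, FOXA1 and EPCAM, with the receptors ESR1 and PGR at no more than 17 reads. The 3 fibroblast markers in the table, led by COL1A1, summed to 10.9 to 11.6 CPM in khellin libraries against 5.91 to 6.65 CPM in control libraries, with COL3A1 and LUM at no more than 7 reads, and their part in the tubulin results was not tested. Endothelial markers summed to 2.28 to 3.03 CPM in khellin libraries and 1.75 to 1.82 CPM in control libraries, and blood markers to 0.130 to 0.437 CPM in khellin libraries and 0.0331 to 0.169 CPM in control libraries.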

How the data were processed

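RNA had been extracted with TRIzol and made into polyadenylated RNA libraries with a VAHTS kit, per the labels' protocols. Reads were processed with fastp, HISAT2 and HTSeq, per the submitters' processing notes; their versions, the build, the annotation and the strand setting are not given in the sources used. The deposited values are raw read counts per gene, as the authors made them, and were used as deposited. The deposited gene spans of 10 of 10 members overlap GENCODE release 29 on GRCh38, so that build was used for coordinates, transcript lengths and sequences. The 6 libraries were grouped by their titles (3 khellin, 3 control), with 28631578 to 30956610 counts each. Counts were tested over the whole table with edgeR 4.0.16 (R 4.3.3; TMM scaling, filterByExpr, robust quasi-likelihood test, group as the only term, 2-sided, Benjamini-Hochberg over 15865 genes, adjusted p under 0.05); the coefficient of biological variation was 6.95%. The SE is the log2 fold change over the root of its F statistic. Shares, sums and ratios were computed within each library and tested with an exact permutation test over libraries (Python 3.11.15, NumPy 2.4.6), 2-sided, whose smallest p is 0.1. Sequences were compared with Biopython 1.88 over 58 tubulin genes and pseudogenes. The fit was tested on simulated data. Alternatives were RLE scaling, library size only, no filter or a filter of 1 CPM, DESeq2 1.42.0, a replicate block, summed copies and leaving out each library. All 10 members were named, with up to 3 called genes per list by smallest p and the 3 genes most like the main isotype of each family (mean CPM of at least 5, log2 of CPM plus 2). One called gene is not reported here. The members and lists were chosen with earlier results of these data known.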

Additional observations from a re-analysis of the deposited data

How the results depend on the processing

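The fall of TUBB6 kept its direction and its call in each of 13 alternatives, between −0.63 and −0.51 with a largest adjusted p of 0.00321 (−0.59 by DESeq2). Signs near 0 turned: with library size only TUBB4B came to 0.0021 and TUBA1C to 0.036, and leaving out 1 library gave −0.11 to 0.040 for TUBB4B, −0.031 to 0.0050 for TUBA1C, −0.010 to 0.059 for TUBA4A and −0.136 to 0.0280 points for the share of TUBA4A. The share difference of TUBB came to −0.178 points without TUBB6 counts. Leaving out 1 library gave 919 to 1990 higher and 643 to 1722 lower genes over the whole table (1681 and 1399 with all), lowest without khellin library 3, 11 to 22 higher and 2 to 15 lower genes around tubulin, and 3 to 5 beta and 0 to 2 alpha shares without overlap (5 beta without control library 3). Library size only gave 2208 higher and 986 lower genes over the whole table, and 3 lower genes around tubulin in place of 9; the cause was not tested. With the replicate block TUBB6 stood at −0.57 with an adjusted p of 0.000342, and TUBGCP2, HAUS5, CCT3, MAP7D3 and TTL lost their calls. Deviations from the group mean correlated at 0.136, 0.034 and −0.119 between same-numbered libraries, and at −0.248 to 0.214 between differently numbered libraries. Such deviations are tied to each other within a group of 3, so these values cannot settle whether the numbers pair the libraries. With 3 libraries per group permutation p cannot pass below 0.1, and TUBB3 rests on 56 to 93 reads per library.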
